A study of Mus musculus with 3 samples.

Results

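Fasl, Nkg7 and Cd226 are 3 genes of the kind that cytotoxic T cells and natural killer cells use, examined here in mouse CD4 T cells grown under conditions that favour the Th17 state. They were chosen by their H3K4me3 level: the region at each start site was among those with the largest gain in cells without STAT3, so that gain is described below and supports nothing further. The start-site regions of these genes are 3 of 10971 marked H3K4me3 regions (regions with at least 50 reads in both H3K4me3 libraries together). All 3 genes were located from the windows and start sites given for them on mm9, the build of the reads.

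The study asks how STAT3, a transcription factor activated by IL-6, shapes binding and promoter state in T cells. Naive CD4+CD44-CD62L+ cells were activated through CD3 and CD28 for 72 h under antibodies that block IL-2, IL-4 and IFN-g. The medium held TGF-b at 2.5 ng/ml and IL-6 at 10 ng/ml, and IL-6 was given again for 1 h before chromatin was taken. Wild-type cells were Stat3fl/fl FoxP3-GFP, that is, with a conditional Stat3 allele and no Cre, and STAT3-deficient cells were Stat3fl/fl FoxP3-GFP, CD4-Cre. CD4-Cre places the recombinase under Cd4 control, so Stat3 is lost in T cells, and both genotypes carry the conditional allele and the reporter. The age of the mice and the number of mice behind each library are not stated in the labels. Each genotype had 1 H3K4me3 library, and wild-type cells also had 1 library made with an antibody against serine-phosphorylated STAT3.

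Fasl encodes Fas ligand, a member of the tumour necrosis factor family that kills cells carrying the death receptor Fas and is made by activated T cells and natural killer cells. Nkg7 encodes a small membrane protein of cytotoxic granules that takes part in granule release. Cd226 encodes DNAM-1, an activating adhesion receptor that binds CD155 and nectin-2 on target cells. H3K4me3, trimethylation of lysine 4 of histone H3, is concentrated at the start sites of active genes, just downstream of the start in particular.

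The 3 libraries held 10127075 to 12281399 reads, with at most 1 read per position and strand. The Stat3 gene was not placed on mm9, so the genotype label was checked only by a search for intervals without STAT3-deficient reads. The interval of at least 2 kb with the most wild-type reads (by the smaller of both wild-type counts) was chr11:100753872-100757528, which held 28 wild-type H3K4me3 reads, 73 phospho-STAT3 reads and 0 STAT3-deficient reads. The next intervals by this measure, on chromosomes 18 and 6, each held 24 wild-type H3K4me3 and 23 phospho-STAT3 reads. None of these intervals was assigned to a gene. Defining markers of Th17 cells and of other cell types were not placed on mm9 either, so the labelled cell type was not checked, nor whether cytotoxic cells were present in either culture. A change in the mark per cell and a change in the share of cells that carry it cannot be told apart in these bulk libraries.

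The start-site sequences of Fasl and Nkg7 are shown because the H3K4me3 regions described next lie at the start sites of these genes. RefSeq sequences for GRCm38.p6 matched 2 of the 3 genes, and each holds 250 bases before and 50 bases after the start of the gene, on the strand of the gene. Capitals mark matches to the motifs searched on both strands, which were TTCNNNGAA and its form with a longer spacer (STAT), GGAAA (NFAT core, which can overlap the STAT letters), TGACTCA (AP-1), TCACACC (T-box core) and TATAAA. These stretches are on another build than the reads and were not mapped onto it.
Fasl (GRCm38.p6, chr1:161788446-161788745, minus strand): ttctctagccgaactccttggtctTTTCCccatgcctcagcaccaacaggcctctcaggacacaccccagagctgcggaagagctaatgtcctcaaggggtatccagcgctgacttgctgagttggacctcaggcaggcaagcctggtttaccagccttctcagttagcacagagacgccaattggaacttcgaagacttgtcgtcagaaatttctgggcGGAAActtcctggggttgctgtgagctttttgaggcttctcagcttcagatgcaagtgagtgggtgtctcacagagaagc
Nkg7 (GRCm38.p6, chr7:43436888-43437187, plus strand): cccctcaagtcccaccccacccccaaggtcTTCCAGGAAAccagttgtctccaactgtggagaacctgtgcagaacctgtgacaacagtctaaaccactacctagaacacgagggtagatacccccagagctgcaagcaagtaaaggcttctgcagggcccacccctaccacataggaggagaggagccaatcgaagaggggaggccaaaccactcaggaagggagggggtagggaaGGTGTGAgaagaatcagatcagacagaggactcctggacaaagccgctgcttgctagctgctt

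The Nkg7 stretch held 1 match to TTCNNNGAA, the letters TTCCAGGAA starting 220 bases before the start, a motif found in 8.3% of 32851 RefSeq promoters of the same length. It overlapped a GGAAA match, and a T-box core match began 13 bases before the start (3.98% of promoters hold one). The Fasl stretch held GGAAA once on each strand, which 61.3% of promoters hold at least once, and none of the other motifs. Fasl had 7 CG pairs in its 300 bases and Nkg7 had 3, against a median of 7 over all promoters. A match is a description of letters, not a bound site.

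At the Fasl start site, the H3K4me3 region chr1:163716400-163718999 held 22 reads in wild-type and 134 in STAT3-deficient cells. After scaling, this was 4.97-fold higher in the STAT3-deficient library (exact 95% interval 3.15 to 8.19). Ratios were scaled so that the median of marked regions is no difference, which takes out any change common to all of them. The region spans 2600 bp, wider than 91.3% of marked regions, and lies mostly downstream of the start.

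In the Nkg7 region, chr7:50692400-50694799, there were 25 reads in wild-type and 152 in STAT3-deficient cells, 4.96-fold higher (3.23 to 7.90). At 2400 bp it was longer than the gene itself, which measures 1109 bp on GRCm38.p6.

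For Cd226, chr18:89366800-89368199 gave 22 reads in wild-type and 121 in STAT3-deficient cells, 4.49-fold higher (2.83 to 7.42), within 1400 bp. The intervals of the 3 ratios overlap, so the genes are not separated from each other at this depth. By library totals the folds were 6.19, 6.18 and 5.59 in the same order. With 1 library per genotype there is no replicate check, and all intervals cover counting error only, from reads without molecular identifiers.

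Of all marked regions, 1.01% (111) were higher in the STAT3-deficient library by the size rule, a fold of 2 or more whose interval leaves out no change. In the same setting 124 were lower. The number higher was 319 when scaled by library totals and 13 when only wild-type reads were used to call regions, so the share depends on the processing. All 3 members are among the 111, which their choice fixed. Ordered by the lower bound of the interval, Nkg7 was 6th, Fasl 7th and Cd226 9th of the 111. The median log2 ratio of the 111 was 1.39, against 2.31 for Fasl, 2.31 for Nkg7 and 2.17 for Cd226.

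**Figure D1:**
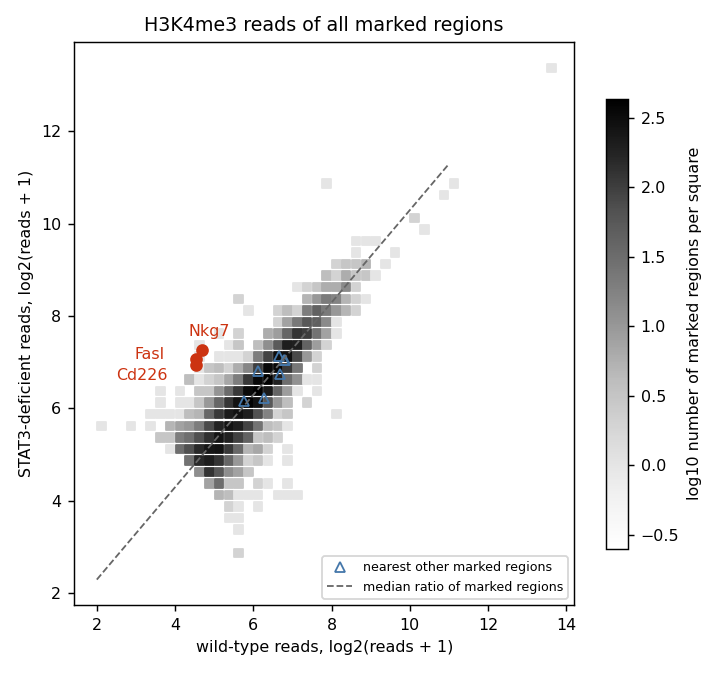
H3K4me3 reads of the 10971 marked regions, wild-type on the x axis and STAT3-deficient on the y axis, both as log2(reads + 1). Grey squares are shaded by the number of regions they hold, red points are the start-site regions of the 3 genes and triangles the other marked regions in and next to their windows. The red points lie above the dashed line of the median ratio, and the triangles lie along it.

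In wild-type cells the regions were among the weakest marked regions, which a choice by high ratio favours. Fewer wild-type reads per kb were found in only 0.0365% of marked regions for Fasl (8.46 reads per kb), 0.0820% for Nkg7 (10.4) and 0.374% for Cd226 (15.7). In the STAT3-deficient library the density was that of ordinary marked regions. Fasl had 51.5 reads per kb, Nkg7 63.3 and Cd226 86.4, against a median of 60.7 over marked regions. Cd226 was denser than 84.1% of marked regions and Fasl than 33.3%.

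Set against the rest of each gene window, Fasl and Nkg7 showed no detectable wild-type H3K4me3 peak. The wild-type density in the Fasl region was 1.37-fold that of its window outside called regions (0.842 to 2.12), and in the Nkg7 region 1.26-fold (0.793 to 1.92). In the STAT3-deficient library the same ratios were 7.30 (5.89 to 9.02) and 7.36 (5.89 to 9.19). Cd226 differed in that its wild-type region stood out from a sparse window, 6.54-fold (4.03 to 10.1), and was 19.6-fold (15.9 to 23.9) in the STAT3-deficient library. That window held 2.40 wild-type reads per kb outside the region, against 5.81 genome-wide and 15.7 in the region. Set against the genome-wide density, the Cd226 ratio is therefore smaller. When regions were called on the wild-type library alone, none was found within 500 bp of any of the 3 start sites. On the STAT3-deficient library alone, 1 was found at each. Calling on 1 library needed 200 bp windows with at least 9 reads. The fullest wild-type window held 4 reads at Fasl, 4 at Nkg7 and 8 at Cd226, so the absence restates the low wild-type counts.

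Most of the mark lay downstream of the start site at all 3 genes, at different distances. In the STAT3-deficient library, 123 of 134 Fasl reads, 139 of 152 Nkg7 reads and 100 of 121 Cd226 reads lay downstream of the start site. The called regions reach little upstream of the start, so these shares partly reflect where the regions end. Their outermost upstream windows are centred at -300 bp for Fasl and at -100 bp for Nkg7 and Cd226. The fullest 200 bp window was centred 500 bp downstream of the start for Fasl, with 19 STAT3-deficient and 3 wild-type reads. For Nkg7 it was centred 1300 bp downstream, beyond the 1109 bp of the gene on GRCm38.p6, with 34 and 4 reads. For Cd226 it was centred 300 bp downstream, with 36 and 8 reads. The median distance of the STAT3-deficient reads from the start was 1040 bp at Fasl, 932.5 bp at Nkg7 and 312 bp at Cd226. No wild-type window in the Fasl and Nkg7 regions held more than 4 reads.

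Split at the start site, the downstream part was 5.90-fold higher in the STAT3-deficient library at Fasl (3.54 to 10.5), 5.40-fold at Nkg7 (3.40 to 9.00) and 4.29-fold at Cd226 (2.61 to 7.43). Upstream of the start there were few reads, and the upstream parts of the regions are much shorter than the downstream parts. The upstream folds were 1.79 at Fasl (0.575 to 6.59, 5 wild-type and 11 STAT3-deficient reads) and 2.65 at Nkg7 (0.819 to 11.2, 4 and 13 reads), and both intervals include no change. At Cd226 it was 5.71 (1.70 to 29.9, 3 and 21 reads). These parts share the reads that chose the genes and are given as a description. Reads in the STAT3-deficient regions were split between strands, with 43.8% to 53.0% on the plus strand.

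**Figure D2:**
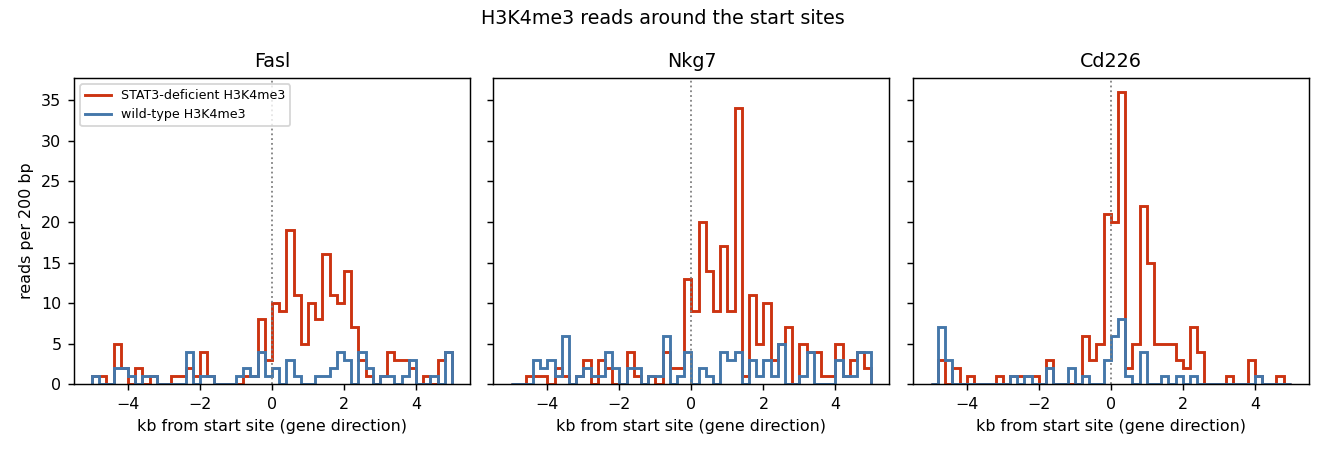
H3K4me3 reads per 200 bp (y axis) within 5 kb of each start site (x axis, in the direction of the gene), red for STAT3-deficient and blue for wild-type. Red rises to 19 reads at Fasl, 34 at Nkg7 and 36 at Cd226, each downstream of the start, while blue within the regions stays at 4 reads or fewer at Fasl and Nkg7 and reaches 8 at Cd226.

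A gain of this size was not seen at the nearest other marked regions. The Nkg7 window holds a further marked region, chr7:50698400-50700199, which begins 5.8 kb beyond the Nkg7 start site. Its counts were 109 and 132 reads, a fold of 0.988 (0.761 to 1.28). Nkg7 lies between Lim2 and Cldnd2 in the GRCm38.p6 gene table, and the region was not assigned to a gene. The next marked region beyond the Fasl window, chr1:163805600-163807799, held 111 and 132 reads, a fold of 0.970 (0.748 to 1.26). The Cd226 start-site region was the only marked region in its window. Its nearest marked neighbours were 225 and 1312 kb away, with folds of 1.32 (0.972 to 1.81) and 1.14 (0.877 to 1.49). Over all 7 marked regions in or next to the windows, folds ranged from 0.794 to 1.32 and every interval included 1. Their upper bounds reached 1.81, and the lowest lower bound of the 3 genes was 2.83. The choice of the genes by high ratio favours this contrast. Of all marked regions, 85.9% had a log2 ratio within 0.5 of no difference. Folds near 1 are therefore not read as particular to these neighbours.

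**Figure D3:**
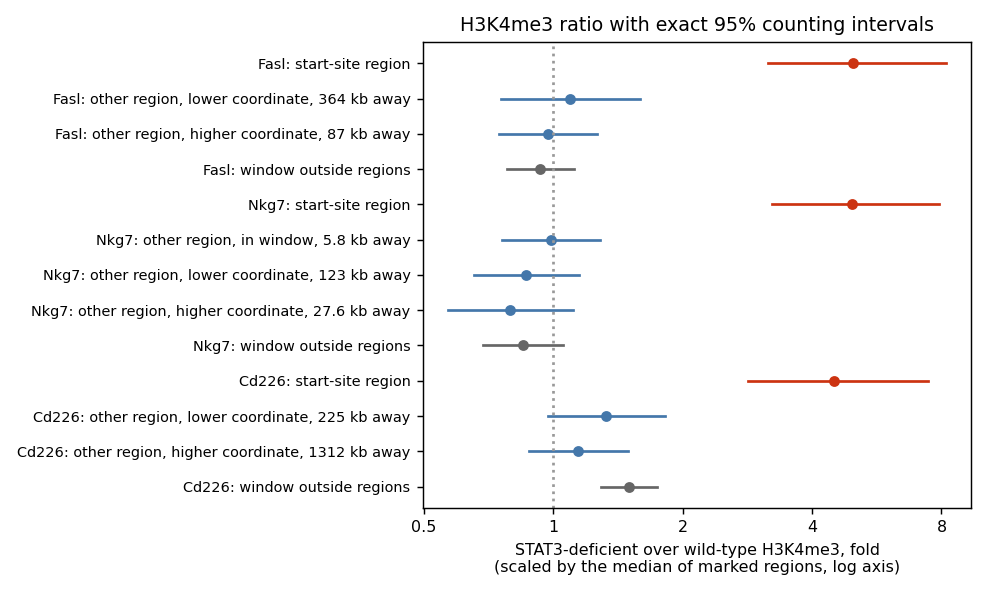
STAT3-deficient over wild-type H3K4me3 as a fold on a log axis, scaled by the median of marked regions, with exact 95% counting intervals. Red marks the start-site regions, blue the other marked regions and grey the reads of each window outside called regions. The 3 red intervals lie above 2, the 7 blue intervals include 1, and of the grey intervals that of Cd226 lies above 1.

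Over the whole window, Cd226 differed from the other genes in the reads outside called regions. Over the 113.601 kb of its window outside the start-site region, there were 273 wild-type and 502 STAT3-deficient reads, a fold of 1.87 by library totals (1.61 to 2.18) and of 1.50 (1.29 to 1.74) scaled by marked regions. For Fasl the fold by library totals was 1.16 (0.970 to 1.39) over 37.401 kb and for Nkg7 1.06 (0.854 to 1.31) over 20.801 kb. The Fasl value joins 2 unlike sides, 1.51 (1.19 to 1.93) downstream of its start-site region and 0.803 (0.602 to 1.07) upstream. An excess downstream is thus not particular to Cd226. Library totals are the plainer scale here, since these reads are mostly background, although they include reads next to the edges of the start-site regions.

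Among the stretches of the Cd226 window, the fold was highest just after the start-site region, but its interval overlaps those of the following stretches of 20 kb. In the 20 kb after the start-site region there were 39 wild-type and 117 STAT3-deficient reads, a fold of 3.05 (2.11 to 4.50). In the following stretches of 20 kb the folds were 1.88 (1.33 to 2.68), 2.12 (1.55 to 2.92) and 1.50 (0.999 to 2.28). In the last 11.801 kb of the window the fold was 0.842 (0.469 to 1.50). Reads next to the start-site region enter the fold of the first stretch. The 500 bp bin centred 2250 bp downstream of the start, past the region's end, held 1 wild-type and 12 STAT3-deficient reads. The gene measures 95279 bp on GRCm38.p6. Upstream of the region the fold was 1.54 (1.06 to 2.25), but 1.23 (0.847 to 1.81) scaled by marked regions. It includes the bin centred at -750 bp, near the region, which held 1 wild-type and 6 STAT3-deficient reads. By library totals, the 500 kb before and after the window had folds of 1.04 (0.967 to 1.11) and 1.19 (1.09 to 1.31).

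Folds over fixed tiles set the Cd226 window against the other autosomal sequence. In tiles of 100 kb over the autosomes with at least 100 wild-type reads outside called regions, the median fold was 0.984 and the 99th percentile 1.23. The tile chr18:89300000-89399999, which holds the Cd226 start, had a fold of 1.82 and ranked first of 23471. At a minimum of 273, the wild-type count of the Cd226 window itself, no tile of that window qualified, and the highest of 17193 folds was 1.66, on chromosome 3. In tiles of 20 kb, a minimum of 39 was taken from the first stretch after the Cd226 region. The highest of 100410 folds was then 2.58, at chr18:89420000-89439999 in the Cd226 window, a tile that only just passes. At a minimum of 20 the highest of 115282 was 2.97, also in the window, at chr18:89360000-89379999. At a minimum of 60 only 1 tile of the window qualified, and it ranked 434 of 80109 with a fold of 1.43. The first ranks thus rest on admitting sparse tiles. These stretches were examined after their values were seen, and they come from the same pair of libraries that chose the gene, so the ranks are a description. More of the mark and more copies of the DNA in these cells cannot be told apart without an input library, which was not analysed here.

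**Figure D4:**
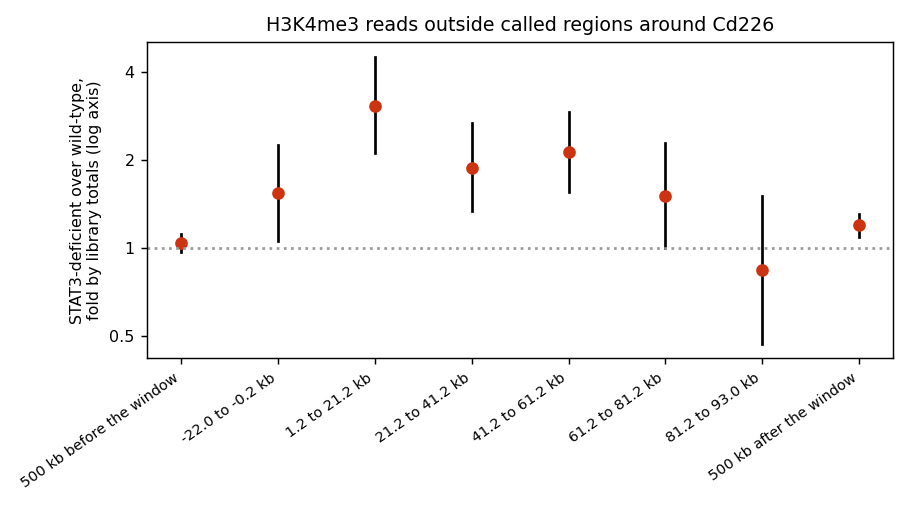
STAT3-deficient over wild-type H3K4me3 reads outside called regions around Cd226, as a fold by library totals on a log axis with exact 95% counting intervals. Positions are in kb from the start site. The fold is 3.05 in the 20 kb after the start-site region, with an interval that overlaps those of the following stretches of 20 kb. It is 0.842 at the far end of the window, and 1.04 and 1.19 in the 500 kb on either side.

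Phospho-STAT3 in wild-type cells is a readout apart from the H3K4me3 ratio, but the genes were proposed with earlier results of both in view, so it is also given as a description. None of the 3 start-site regions held a called phospho-STAT3 site, whereas 52.5% of marked regions held one. A site is a 200 bp window, or overlapping windows, with at least 10 reads, far above expectation (Poisson p under 1e-08). The expectation is the larger of the genome-wide density and that of the surrounding 10 kb. The Fasl region held 18 phospho-STAT3 reads, the Nkg7 region 7 and the Cd226 region 20. Their fullest windows held 5, 3 and 5 reads.

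Relative to the window outside called regions, the phospho-STAT3 density was 0.921-fold at Fasl (0.538 to 1.48) and 0.501-fold at Nkg7 (0.197 to 1.06). At Cd226 it was 4.22-fold (2.55 to 6.60), where wild-type H3K4me3 was also above its window. There too the window was sparse, with 3.39 phospho-STAT3 reads per kb outside the region, against 4.79 genome-wide and 14.3 in the region. Weak marked regions hold sites less often in general: of 1452 marked regions with 17 to 30 wild-type H3K4me3 reads, 29.5% held one (Wilson 95% interval 27.3 to 31.9). Among the 111 higher regions it was 24.3% (17.3 to 33.1). The count of 0 in 3 regions is therefore not read as particular to these genes.

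The nearest sites lay outside the regions and were mostly weak. Each gene window held 2. The site nearest to the Fasl region was 18.801 kb from its edge, that nearest to Nkg7 3.951 kb and that nearest to Cd226 7.151 kb. Within 10 kb, a site was present for Nkg7 and Cd226, as for 74.6% of marked regions.

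The strongest site in the 3 windows was chr1:163696750-163697199, downstream of Fasl and 21.626 kb from its start. It held 57 reads, and its best window had 47 reads, 19.0-fold over the local expectation and above 93.7% of all 26908 sites by excess over that expectation. It was the single site of the 3 windows in the top 25% of sites by that excess. H3K4me3 within 1 kb of it was low in both genotypes, with 22 wild-type and 16 STAT3-deficient reads. A weaker neighbour, chr1:163697400-163697599, held 16 reads.

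Both sites in the Nkg7 window, chr7:50698750-50698949 and chr7:50699350-50699599, held 18 and 22 reads, and both lay inside the further marked region whose H3K4me3 did not differ detectably. Both sites were also called in the wild-type H3K4me3 library by the same rule, so enrichment of phospho-STAT3 and of open chromatin in general cannot be told apart there without an input. The sites in the Cd226 window, chr18:89375350-89375549 and chr18:89394700-89394949, held 11 and 13 reads, close to the minimum, and 0.216% and 2.88% of all sites had a smaller excess. They were 8.449 and 27.824 kb downstream of the start, within the stretch where STAT3-deficient H3K4me3 reads were more frequent. Within 1 kb of the first there were 4 wild-type and 14 STAT3-deficient H3K4me3 reads, and of the second 1 and 5. Both intervals of these ratios include no change.

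**Figure D5:**
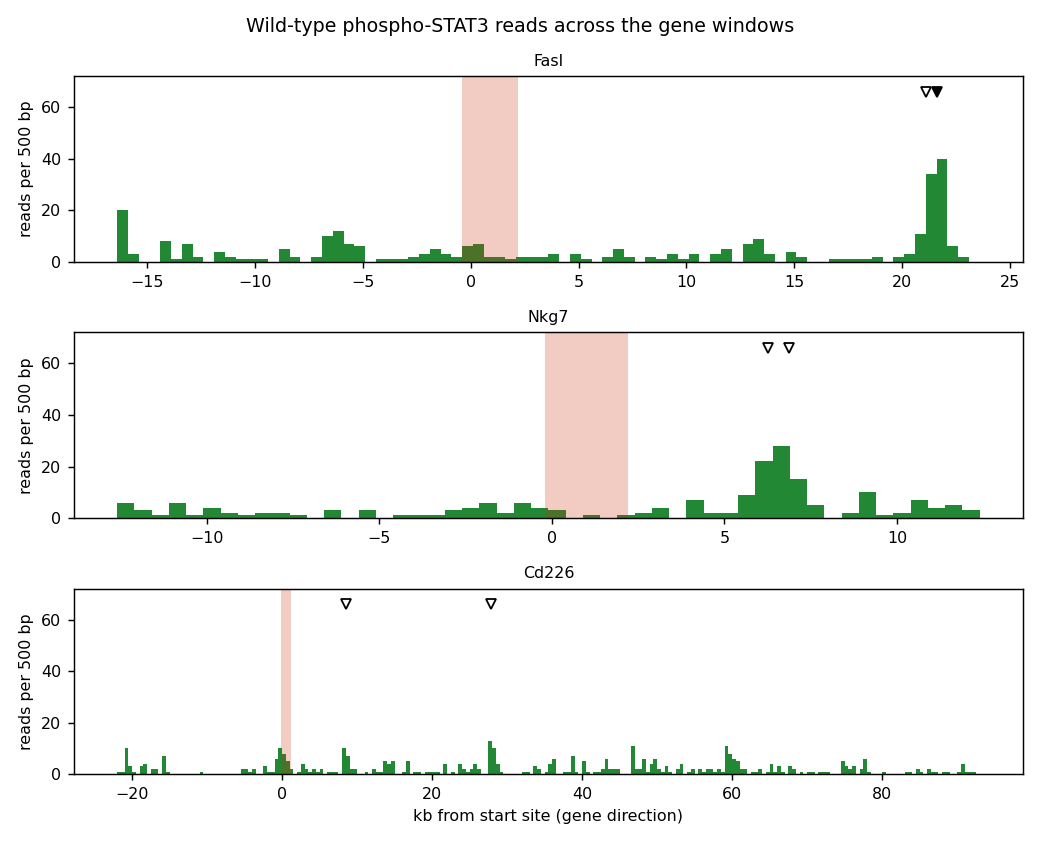
Wild-type phospho-STAT3 reads per 500 bp (y axis) across the 3 gene windows, by distance from the start site in kb (x axis, gene direction). Red bands are the H3K4me3 start-site regions, filled triangles the sites in the top 25% and open triangles other sites. The reads pile up 21.626 kb downstream of Fasl and in the further marked region of the Nkg7 window, and stay low inside the red bands.

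The marked regions most like the members, by the Euclidean distance of log2(reads + 1) over the 3 libraries, were partly the members themselves. Fasl and Cd226 were each other's nearest region of all 10971, at a distance of 0.205. Next for both was chr3:14886400-14887999, with 27 wild-type H3K4me3, 111 STAT3-deficient H3K4me3 and 23 phospho-STAT3 reads. For Nkg7 the nearest were chr17:12883600-12884799 (19, 102 and 11 reads in the same order) at 0.901 and chr9:40230000-40230999 (20, 93 and 11) at 0.965. All 3 of these other regions were also higher in the STAT3-deficient library by the size rule. The distance uses the same H3K4me3 counts that give the ratio. Likeness to a member therefore favours a like ratio, and this is given as a description.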

How the data were processed

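The authors deposited aligned reads, 1 line per read with 25 bases, strand and position, with no count or score for any region. The build (mm9) and the use of SICER come from the submitters' processing notes; the aligner is not given in the sources used here. Per the labels' protocols, libraries were amplified for 18 cycles.

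Reads were moved 75 bp towards the fragment centre. The pooled H3K4me3 libraries gave the H3K4me3 regions (200 bp windows with at least 12 reads, Poisson p of 1e-05, joined over 600 bp, at least 2 windows), and ratios were scaled by the median of marked regions, with 0.5 added to each count for that median alone. Intervals of ratios are exact (Clopper-Pearson), treating reads as independent. Phospho-STAT3 windows moved in steps of 50 bp and needed reads on both strands. No test between genotypes was possible with 1 library per group. The ratio rule and the phospho-STAT3 site caller were tested on simulated data. The H3K4me3 region caller was not. Named items were the 3 genes, the marked regions and sites in their windows, the nearest marked region on each side and the 2 most alike regions. The members and lists were chosen with earlier results of these data known. The stretches and tiles around Cd226 were added later. A wider list of cytotoxic genes and the marker lists were not run, since gene positions were to hand only on GRCm38.p6. Software was Python 3.11.15 with pandas 2.3.3, numpy 2.4.6, statsmodels 0.14.6, scipy 1.17.1 and, for figures, matplotlib 3.10.9.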

Additional observations from a re-analysis of the deposited data

How the results depend on the processing

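Under 9 alternatives for each gene, 1 of them added after seeing the data, the H3K4me3 ratio stayed above 0 on the log2 scale, from 1.87 to 4.31 for Fasl, 1.86 to 4.70 for Nkg7 and 2.09 to 2.65 for Cd226. With local background subtracted it was 3.99 for Fasl and 4.38 for Nkg7, and with library totals as well (the added alternative) 4.31 and 4.70. So few wild-type reads exceed background there that these values are poorly bounded. Called on the wild-type library alone, no region was found at the 3 starts, so that alternative gave no ratio. The share of marked regions called higher was 2.91% by library totals, with 319 higher and 54 lower against 111 and 124, and 0.146% with wild-type reads alone used for calling (13 higher, 117 lower). With the STAT3-deficient library alone used for calling, 125 were higher and 21 lower. At a minimum of 20 reads 172 regions were higher and 417 lower, and at 100 reads 56 were higher and 39 lower. Sites in the windows depended on the caller: at p under 1e-12 there were 1, 0 and 0 for Fasl, Nkg7 and Cd226, likewise 1, 0 and 0 with at least 20 reads, and 1, 1 and 0 without the read shift, and at p under 1e-05 there were 4, 2 and 3. Against the genome-wide density alone there were 3, 2 and 2. Under none of these 5 alternatives did a site overlap a start-site region. No paired analysis was possible because each group had 1 library.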

Other observations

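Outside called regions, the split between upstream and downstream differed at Fasl. In the 21.4 kb downstream of its start-site region there were 117 wild-type and 174 STAT3-deficient H3K4me3 reads, a fold of 1.51 by library totals (exact 95% interval 1.19 to 1.93). In the 16.001 kb upstream there were 114 and 90, a fold of 0.803 (0.602 to 1.07). Scaled by marked regions, the Fasl fold was 1.21 (0.954 to 1.55) downstream and 0.644 (0.483 to 0.856) upstream. At Nkg7 the folds by library totals were 1.32 (0.970 to 1.79) downstream and 0.844 (0.617 to 1.15) upstream. Scaled by marked regions they were 1.06 (0.778 to 1.44) and 0.677 (0.495 to 0.924). Which side leaves out no change thus depends on the scaling. These stretches were chosen after the data were seen, and the difference between the sides was not tested.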
